A study of Mus musculus with 54 samples.

Results

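The CIR-3 line was compared with the CIR-2 line of Ba/F3-gp130 cells, on 12 of the study's 27 arrays. The arrays were chosen by their titles, 6 labelled CIR3 against 6 labelled CIR2. Each line has 3 unstimulated arrays (numbers 1, 3 and 5) and 3 arrays after GFP-PFC (numbers 2, 4 and 6), and the difference is the mean of the differences in both conditions. Both lines are Ba/F3-gp130 cells, labelled as a Hyper-IL-6-dependent pro-B line, that carry a Cargo Internalization Receptor (CIR) construct, CIR-2 or CIR-3. They were grown with 10 ng/ml Hyper-IL-6, washed 4 times and kept without serum for 3 h. Stimulated cells received 50 µl per ml of GFP-PFC, a perfluorocarbon emulsion, for 1 h. Untransfected parental cells and the CIR-1 line, treated in the same ways, gave the shared spread of the fit and are given below as levels only. The stated aim was to see how the constructs act on the cells as a whole. The labels do not say what the constructs are made of or whether a line is 1 clone or a pool, so construct and line history cannot be told apart. They do not say either whether the arrays come from separate cultures, and p-values then measure only the spread between these arrays.

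Ba/F3 cells are immortalised mouse blood progenitor cells that need a cytokine to live. A gp130 chain makes them answer Hyper-IL-6, in which interleukin-6 is fused to its soluble receptor, and gp130 signals through JAK kinases, STAT3 and the ERK pathway. Receptors that carry cargo into cells do so through coated pits, endosomes and lysosomes, and the genes of that route are described below beside blood lineage, signalling and housekeeping genes. All gene lists were written with earlier results of these data known. Their counts, given beside the share of all genes, are descriptions and test nothing.

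All values are log2 signals, and every difference is CIR-3 minus CIR-2 on the log2 scale unless another pair is named. Array medians lay between 7.52 and 7.65. Correlations across genes were 0.9959 to 0.9987 between arrays of the same line and condition and 0.9945 to 0.9971 between lines in the same condition. A mean below 6.28, the median of the arrays' lower quartiles, was not shown to lie above background, and a difference against it is a lower bound on the change in RNA. The number of arrays limits the precision. The pro-B label was set against 21 B-lineage markers. In CIR-2 cells 15 and in CIR-3 cells 16 of them lay above that mark, among them the antigen receptor chains Cd79a and Cd79b at mean levels of 9.55 and 10.14 in CIR-2 and 10.05 and 10.12 in CIR-3. Ms4a1 (CD20), the recombinase gene Rag2 and the interleukin-7 receptor Il7r were below it in CIR-2, with means of 5.3. Il6st, the mouse gp130 gene, was near it in both lines, at 6.37 in CIR-2 and 6.33 in CIR-3.

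The lines differed in a few genes by large factors and in many genes by small ones. In limma, 1572 of 19920 genes (7.89%) passed in the mean of both conditions, 1035 higher in CIR-3 (5.2%) and 537 lower (2.7%). Of those that passed, 27 were higher by 1 or more on the log2 scale and 18 lower by as much, while 1446 differed by less than 0.5. The median size of a passing difference was 0.20, and the median over all genes was -0.02. For 714 genes (3.58%) the lines' arrays, 6 a side, did not overlap, and 510 genes (2.56%) were both separate in this way and passed. Of the passing genes 65.8% were higher in CIR-3, and this share was 52.5% when the arrays were quantile normalized. Without the replicate block 396 genes passed. The count was 1032, 1005 and 852 without CIR-2 array 1, 4 or 6, and 1025, 961 and 925 without CIR-3 array 3, 5 or 6.

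The largest rises in CIR-3 were in the predicted gene Gm773, the galectin gene Lgals3 and the piRNA-pathway helicase gene Tdrd9. Gm773 ranged from 4.82 to 5.04 in the 6 CIR-2 arrays (median 4.92) and from 9.65 to 10.42 in CIR-3 (median 9.81). All CIR-2 values were below the background mark and all CIR-3 values far above it, a difference of 4.94 (SE 0.0942, adjusted p = 2.58e-16) that is at least 30.8-fold. Lgals3 encodes galectin-3, a secreted and cytoplasmic sugar-binding protein. It ranged from 8.67 to 8.82 in CIR-2 (median 8.78) and from 12.15 to 12.44 in CIR-3 (median 12.22), 11.4-fold higher (difference 3.51, SE 0.0684, adjusted p = 2.58e-16). Tdrd9 ranged from 7.32 to 8.01 in CIR-2 (median 7.75) and from 10.81 to 11.04 in CIR-3 (median 10.97), a difference of 3.24 (SE 0.0851, adjusted p = 2.48e-14). The arrays of these genes do not overlap between the lines because only such genes were eligible.

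The other 9 of the 12 highest rises were Wfikkn2, Mpo, Ptgs2, Wfdc15a, Gzmb, M1ap, Csf1, Clec12a and Scin. Wfikkn2, a secreted protein with protease-inhibitor domains, ranged from 7.10 to 7.25 in CIR-2 and from 9.61 to 9.86 in CIR-3, 5.84-fold higher. Wfdc15a, which encodes a small protein with a whey acidic protein domain, was 5.62-fold higher. Csf1, the macrophage growth factor, ranged from 8.41 to 9.37 in CIR-2 (median 8.84) and from 10.73 to 11.80 in CIR-3 (median 11.18), 5.09-fold higher (adjusted p = 4.7e-10). The granule genes Mpo (myeloperoxidase) and Gzmb (granzyme B) were both among them. Mpo ranged from 8.46 to 9.24 in CIR-2 (median 8.98) and from 11.33 to 11.56 in CIR-3 (median 11.39), a difference of 2.52 (SE 0.0989, adjusted p = 9.05e-12). Gzmb ranged from 10.92 to 11.99 in CIR-2 (median 11.36) and from 13.66 to 13.97 in CIR-3 (median 13.81), a difference of 2.39 (SE 0.165, adjusted p = 3.31e-08). For both granule genes the lowest CIR-3 array lay more than 1 above the highest CIR-2 array. M1ap, a meiosis gene, was 5.15-fold higher, Clec12a, an inhibitory lectin receptor of myeloid cells, 4.66-fold, and the actin-severing gene Scin 4.27-fold (adjusted p = 1.93e-08). Clec12a did not have one level in CIR-3, since arrays 5 and 6 lay at 9.20 and 9.30 and the other 4 between 10.35 and 10.46, against 7.51 to 8.02 in CIR-2. Ptgs2, the inducible prostaglandin synthase COX-2, rose by 2.51 and is described with the stimulated arrays.

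The largest falls were in 3830403N18Rik, Xlr and Hs3st1. The uncharacterised gene 3830403N18Rik ranged from 10.30 to 10.67 in CIR-2 (median 10.46) and from 6.35 to 6.85 in CIR-3 (median 6.62), 14.3-fold lower in CIR-3 (difference -3.84, SE 0.114, adjusted p = 1.5e-13). Xlr, an X-linked lymphocyte-regulated gene, ranged from 9.80 to 10.40 in CIR-2 (median 10.25) and from 7.12 to 7.70 in CIR-3 (median 7.20), 7.57-fold lower (adjusted p = 2.6e-11). Xlr belongs to a family of near-identical copies, and which copy its probes read is uncertain. Hs3st1 encodes an enzyme that adds a sulfate to heparan sulfate chains. It ranged from 8.94 to 9.55 in CIR-2 (median 9.25) and from 6.27 to 6.58 in CIR-3 (median 6.48), close to the background mark, and was 6.94-fold lower (SE 0.0663, adjusted p = 5.41e-15). As with the rises, only genes without overlap were eligible.

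The other 9 of the 12 largest falls were Plcb4, Ctla2a, Hipk2, Slc14a1, Slc24a5, Myct1, Igsf6, Fam89b and Sla2. Plcb4, a phospholipase C that acts downstream of G-protein receptors, ranged from 8.17 to 9.04 in CIR-2 and from 6.11 to 6.39 in CIR-3, where its mean lay below the background mark, so that it was at least 5.41-fold lower (adjusted p = 5.61e-12). The nuclear kinase gene Hipk2 ranged from 10.49 to 10.64 in CIR-2 and from 8.64 to 8.88 in CIR-3, 3.59-fold lower (adjusted p = 2.16e-11). The urea transporter Slc14a1 was 3.34-fold lower and the ion exchanger Slc24a5 3.19-fold lower. Ctla2a, which resembles the inhibitory propeptide of cathepsins, was at least 3.85-fold lower, Myct1 3.07-fold, Igsf6, a surface protein of the immunoglobulin family, 3.06-fold, and Fam89b 2.8-fold. Sla2, an adaptor that dampens antigen receptor signalling, was 2.5-fold lower (adjusted p = 2.42e-06), with 9.19 to 10.04 in CIR-3 and 10.28 to 11.49 in CIR-2. All 24 genes were taken from passing genes whose arrays did not overlap between the lines, so that their separation describes the choice and supports nothing. Each passed in every other setting in which it was tested, and Gm773 was not tested where dim genes were left out.

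**Figure D1:**
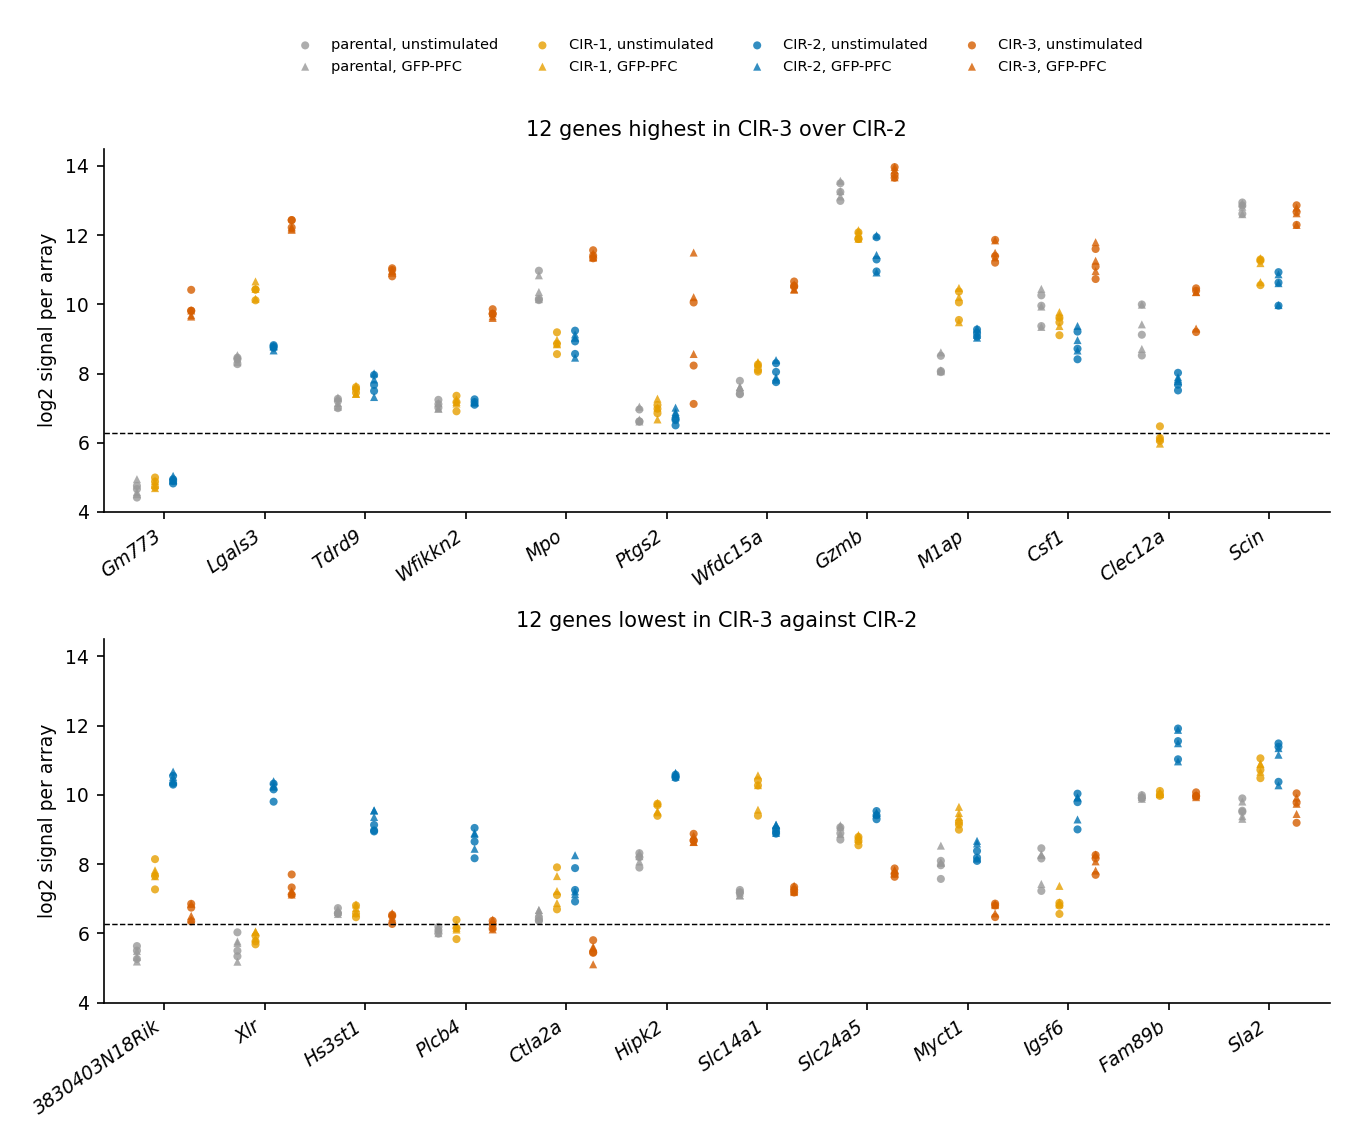
Log2 signal of each array for the 12 genes highest in CIR-3 over CIR-2 (top) and the 12 lowest (bottom), with parental, CIR-1, CIR-2 and CIR-3 arrays side by side, 6 arrays a line, circles for unstimulated and triangles for GFP-PFC. The dashed line is the background mark of 6.28, and the CIR-2 and CIR-3 points of each gene do not overlap, as the choice of genes required, with Ptgs2 the gene whose CIR-3 points spread most, from 7.12 to 11.50.

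Set beside the parental arrays, as levels with no test, the 24 genes split by which line was farther from the parental mean. Among the rises CIR-3 was the farther line for 8 genes, such as Gm773 (5.22 above parental in CIR-3 and 0.28 in CIR-2) and Wfikkn2 (2.64 and 0.09). CIR-2 was the farther line for the other 4, Mpo, Gzmb, Clec12a and Scin. Against the parental mean Scin lay at -2.30 in CIR-2 and at -0.20 in CIR-3. Among the falls CIR-2 was farther for 9, such as Xlr (4.61 above parental for CIR-2, 1.69 for CIR-3) and Plcb4 (2.59 and 0.16), and CIR-3 for Ctla2a, Slc24a5 and Myct1, which lay at -1.03, -1.19 and -1.31 against parental in CIR-3. CIR-3 had the highest mean of the 4 lines for 11 of the 12 rises, and CIR-2 for 10 of the 12 falls. The exceptions were Scin, highest in parental cells, and Slc14a1 and Myct1, highest in CIR-1.

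Tdrd9 and M1ap are best known from germ cells, where TDRD9 silences transposons with piRNAs and M1AP acts in male meiosis. The germline list also holds Xlr, the lymphocyte-regulated gene given above. Of 18 measured members of this list Tdrd9, M1ap and Xlr passed, 2 higher and 1 lower, against 5.2% and 2.7% of all genes. The other 15 lay between -0.18 and 0.01. This list was written with earlier results of these data known, so its count supports nothing about germline genes. Ddx4, Dazl and Mael, defining germ cell genes, had CIR-2 means of 5.3, 5.8 and 5.6, below the background mark. M1ap ranged from 9.04 to 9.30 in CIR-2 (median 9.14) and from 11.20 to 11.86 in CIR-3 (median 11.44). In parental cells Tdrd9 had a median of 7.18, M1ap of 8.09 and Xlr of 5.61. The 250 bases before the start of each of these 3 genes are shown, because they stand out from their list in opposite directions. They are from RefSeq, build GRCm38.p6, 5′ to 3′ on the gene's strand, with each CG in capitals.
Tdrd9, chr12:111971309-111971558, plus strand: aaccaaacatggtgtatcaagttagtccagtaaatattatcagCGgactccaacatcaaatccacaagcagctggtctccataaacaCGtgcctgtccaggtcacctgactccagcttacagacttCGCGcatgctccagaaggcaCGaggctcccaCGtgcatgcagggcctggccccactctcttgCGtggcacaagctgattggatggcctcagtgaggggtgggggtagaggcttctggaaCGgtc
M1ap, chr6:82946672-82946921, plus strand: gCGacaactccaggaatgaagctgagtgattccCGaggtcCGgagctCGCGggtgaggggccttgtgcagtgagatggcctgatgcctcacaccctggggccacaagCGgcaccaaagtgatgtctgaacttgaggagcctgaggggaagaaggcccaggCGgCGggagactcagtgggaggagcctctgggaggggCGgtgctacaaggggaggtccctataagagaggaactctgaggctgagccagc
Xlr, chrX:53797707-53797956, minus strand: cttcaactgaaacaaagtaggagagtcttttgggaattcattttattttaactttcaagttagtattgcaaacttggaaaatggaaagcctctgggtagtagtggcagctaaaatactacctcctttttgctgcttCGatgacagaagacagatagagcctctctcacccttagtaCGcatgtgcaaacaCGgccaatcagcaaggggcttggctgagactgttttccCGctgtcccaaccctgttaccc
These windows hold 8 CG in Tdrd9, 9 in M1ap and 4 in Xlr. Of 32851 such windows of all genes, 43.0% have at least as many as Tdrd9, 40.3% as M1ap and 62.2% as Xlr, with a median of 6. The motif TATAAA, searched on both strands, is in none of the 3 and in 12.4% of all windows. These counts describe the letters, and methylation was not measured.

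For 0 genes did the line difference change with GFP-PFC beyond the test's threshold, and the largest line differences were present in both conditions. Unstimulated, 401 genes passed (2.01%), 263 higher (1.32%) and 138 lower (0.693%), and after GFP-PFC 314 passed (1.58%), 193 higher (0.969%) and 121 lower (0.607%). 231 genes passed in both conditions, 57.6% of the unstimulated and 73.6% of the GFP-PFC genes, all 231 with the same sign. Of the unstimulated genes 65.6% were higher in CIR-3, against 54.6% with quantile normalization. The unstimulated count was 197, 186 and 265 without CIR-2 array 1, 3 or 5, and 168 and 182 without CIR-3 array 3 or 5. The GFP-PFC count was 171 and 145 without CIR-2 array 4 or 6 and 180 and 173 without CIR-3 array 4 or 6. Of the 1572 genes that passed in the mean, 1571 had the same sign in both conditions. The change of the line difference with GFP-PFC was tested as an interaction, and limma called 0 genes (0%), with 432 at an unadjusted p under 0.05. The 5 genes with the smallest p were Sat2 (-0.37, SE 0.0884), Serpinb6b (-0.45, SE 0.110), Skint2 (0.33, SE 0.0833), Rpe65 (0.39, SE 0.0982) and Gm5622 (-0.67, SE 0.174), with adjusted p = 1 for each. A count of 0 does not show that the lines respond alike.

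Ptgs2 and some early response genes had larger line differences after GFP-PFC than before it, though no change passed. In CIR-2 Ptgs2 lay between 6.50 and 6.69 on the unstimulated arrays and between 6.84 and 7.01 after GFP-PFC. In CIR-3 it was 7.12, 8.23 and 10.05 on arrays 1, 3 and 5, and 8.56, 10.21 and 11.50 on arrays 2, 4 and 6. Every CIR-3 array was above every CIR-2 array, and the CIR-3 arrays of one condition differed among themselves by more than the line difference (2.51, SE 0.351, adjusted p = 0.000197). The line difference of Ptgs2 was 1.85 unstimulated and 3.17 after GFP-PFC, and its change, 1.32 (SE 0.703), did not pass.

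Immediate early genes, which cells switch on within minutes of a signal, and ERK feedback genes, which dampen that signal, were taken as 1 list of 26. In it 5 rose, 1 fell and 20 did not pass, against 5.2% higher and 2.7% lower over all genes, and the median difference was 0.17. The transcription factor gene Egr2 ranged from 7.90 to 8.89 in CIR-2 (median 8.38) and from 7.98 to 10.72 in CIR-3 (median 8.93), with overlap, a difference of 0.64 (SE 0.177, adjusted p = 0.0337). Dusp5, a phosphatase that inactivates ERK in the nucleus, ranged from 9.33 to 10.79 and from 9.58 to 11.93, also with overlap, a difference of 0.61 (SE 0.106, adjusted p = 0.00162). Egr2 and Dusp5 were highest on CIR-3 array 6, as Ptgs2 was. Ier2 rose by 0.26 and the ERK inhibitor Spry4 by 0.18, while Jund fell by 0.18. Spry4 differed by -0.01 unstimulated and 0.36 after GFP-PFC, and Ier2 by 0.11 and 0.41. Those changes, 0.37 (SE 0.103) and 0.30 (SE 0.108), did not pass. Egr2 lost its call in 12 settings and Spry4 in 13, while Ier2 lost it in 2 and Dusp5 in 1. Without the replicate block no member of the list passed, and without the arrays numbered 1 and 2 of all lines 9 rose. With the 12 CIR-2 and CIR-3 arrays alone 2 rose, and with all 27 arrays 2 rose. The 5 rises became 2 without CIR-2 array 3, 4, 5 or 6 or CIR-3 array 5 or 6, became 3 without CIR-2 array 1 or CIR-3 array 3 or 4, and became 8 without CIR-3 array 2. The fall of Jund did not pass without CIR-2 array 1, 2, 3 or 4 or CIR-3 array 3 or 4.

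**Figure D2:**
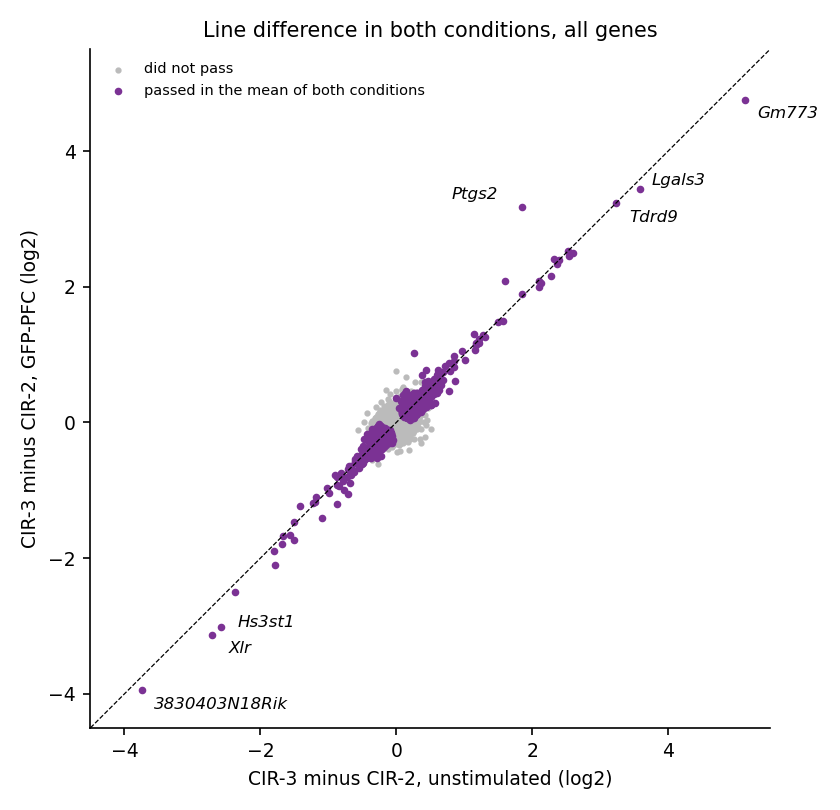
CIR-3 minus CIR-2 on unstimulated arrays (horizontal, log2) and after GFP-PFC (vertical, log2) for 19920 genes, with the 1572 genes that passed in the mean of both conditions in purple and equal differences on the dashed line. The large differences lie along the line, and Ptgs2 (1.85 and 3.17) lies farthest above it among the named genes.

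Most markers of blood lineages did not pass between the lines. Of 21 pro-B and B-lineage markers 2 rose and 1 fell, against 5.2% and 2.7% of all genes. Cd79a, a signalling chain of the B cell receptor, ranged from 9.31 to 9.69 in CIR-2 (median 9.55) and from 9.80 to 10.25 in CIR-3 (median 10.12), with no overlap, a difference of 0.51 (SE 0.0687, adjusted p = 0.000149). The surface receptor gene Cd72 rose by 0.36 and the coactivator gene Pou2af1 fell by 0.20, both with overlapping arrays (adjusted p = 0.0315 and 0.0345). Cd79b, the partner chain, differed by -0.02 and the B-lineage factor Pax5 by -0.05, and neither passed. Cd79a passed in every setting tried. Cd72 lost its call in 13 settings, among them each CIR-2 array left out and CIR-3 array 1, 3 or 4 left out, and Pou2af1 in 11, among them CIR-2 array 1, 4 or 6 and CIR-3 array 3, 4, 5 or 6 left out.

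Of 13 erythroid and megakaryocyte markers 0 rose, 5 fell and 8 did not pass, against 2.7% lower over all genes, and their median difference was -0.12. The transferrin receptor Tfrc ranged from 13.16 to 13.31 in CIR-2 (median 13.24) and from 12.81 to 13.21 in CIR-3 (median 12.97), with overlap, a difference of -0.24 (SE 0.054, adjusted p = 0.0111). The platelet glycoprotein gene Gp9 fell by 0.21, the transcription factor Nfe2 by 0.17, the erythropoietin receptor Epor by 0.16 and the GATA1 cofactor Zfpm1 by 0.15. Each of these 5 was lower in CIR-3 in all 6 same-numbered pairs. Gp9 lost its call in 15 settings and Zfpm1 in 12. Gata1 itself differed by -0.12 and Klf1 by -0.16, and neither passed. No member passed without the replicate block, 1 fell in the exon-level values, 3 fell without CIR-2 array 1 or 5 or CIR-3 array 3 or 5, and 2 fell without CIR-2 array 3, 4 or 6 or without CIR-3 array 6.

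Among the other lineages, single granule and surface genes passed. Of 19 mast cell and basophil markers, Gzmb alone rose (5.2% of all genes did), and 11 of the 19 lay above the background mark in each line. In the exon-level values 3 members of this list rose, as did 3 without the arrays numbered 1 and 2 of all lines. Without CIR-2 array 2 or CIR-3 array 1, 2 rose. The high-affinity IgE receptor chain Ms4a2 differed by 0.34 and histidine decarboxylase Hdc by 0.38, and neither passed, while Kit had a mean of 6.70 in CIR-2 and 6.67 in CIR-3. Of 19 neutrophil and monocyte markers, Mpo rose and the lysozyme gene Lyz2 and the integrin chain Itgam fell, against 5.2% and 2.7% of all genes. Lyz2 ranged from 7.30 to 7.59 in CIR-2 (median 7.55) and from 6.29 to 6.66 in CIR-3 (median 6.42), with no overlap, 2.05-fold lower (adjusted p = 1.25e-09). Itgam fell by 0.30. The serine protease genes Elane and Prtn3, which are packed in granules with MPO, differed by 0.14 and 0.03 and did not pass. Of 14 T and NK cell markers, Il2ra, the alpha chain of the interleukin-2 receptor, rose alone, against the same 5.2%. It ranged from 10.08 to 11.06 in CIR-2 (median 10.48) and from 10.89 to 13.03 in CIR-3 (median 11.65), with overlap, a difference of 1.28 (SE 0.23, adjusted p = 0.00204). CIR-3 arrays 5 and 6 were the highest for Il2ra, at 12.89 and 13.03, and it did not pass without the replicate block. In the exon-level values 2 members of the T and NK cell list rose and 1 fell. The defining T cell genes Cd3d and Cd3g had CIR-2 means of 6.3 and 5.7, near or below the background mark.

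A few receptors that carry cargo into the cell passed, by small differences. Of 25 endocytic cargo and scavenger receptors 5 rose and 1 fell, against 5.2% higher and 2.7% lower over all genes, and the median difference was -0.01. Tfr2, a second transferrin receptor, ranged from 9.33 to 9.67 in CIR-2 (median 9.58) and from 9.65 to 10.05 in CIR-3 (median 9.82), a difference of 0.30 (SE 0.0724, adjusted p = 0.0151), with a small overlap. The oxidised LDL receptor Olr1 rose by 0.29, the lysosomal membrane receptor Scarb2 by 0.21, the WNT co-receptor Lrp5 by 0.21 and the HDL receptor Scarb1 by 0.17. Olr1 overlapped widely, at 6.8 to 7.2 in CIR-2 and 6.8 to 7.9 in CIR-3, and lost its call in 15 settings. The fall was that of Tfrc, given above. Scarb2 and Lrp5 did not overlap between lines, with Scarb2 at 10.29 to 10.56 in CIR-2 and 10.57 to 10.71 in CIR-3. Without the replicate block 0 of the 25 passed in limma, and 3 rose without CIR-3 array 5 or 6. The scavenger receptors Msr1 and Cd36 lay below the background mark, at 5.1 and 4.5 in CIR-2.

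Of 27 genes of clathrin-coated pits and endosome sorting 4 rose and 0 fell, against 5.2% and 2.7% of all genes. Dnm1, the dynamin best known from nerve cells, which pinches vesicles off the membrane, ranged from 7.79 to 8.00 in CIR-2 (median 7.94) and from 8.67 to 8.93 in CIR-3 (median 8.81). Its arrays did not overlap, and the difference was 0.87 (SE 0.0472, adjusted p = 9.57e-10). The widespread dynamin Dnm2 differed by 0.07 and did not pass, and neither did the clathrin chains Cltc (0.05), Clta (0.03) and Cltb (0.05). The endocytic adaptor Numb rose by 0.27, Hip1 by 0.18 and the endosomal sorting gene Hgs by 0.12. Hgs lost its call in 14 settings. Of 24 lysosome genes 6 rose and 0 fell, against the same 5.2% and 2.7%, with a median of 0.08. The protease Ctss rose by 0.39 (SE 0.0595, limma adjusted p = 0.000453), the sialidase Neu1 by 0.24, Cd68 by 0.21, beta-galactosidase Glb1 by 0.16 and the peptidase Tpp1 by 0.14. Tpp1 lost its call in 14 settings and Cd68 in 11. The lysosomal membrane genes Lamp1 and Lamp2 differed by 0.01 and 0.00. Without CIR-2 array 4 or CIR-3 array 3, 4 or 6 the coated pit count was 2, as it was without the replicate block. The lysosome count was 1 without the block or without CIR-2 array 6, and 3 without CIR-2 array 1 or 4 or CIR-3 array 3. It was 2 with the 12 CIR-2 and CIR-3 arrays alone, with quantile normalization, or without CIR-2 array 5 or CIR-3 array 5 or 6.

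Several genes of the endoplasmic reticulum (ER) rose by small amounts. Of 20 ER chaperone and unfolded protein response genes 9 rose, 0 fell and 11 did not pass, against 5.2% higher over all genes, and the median difference was 0.13. The chaperone Hyou1 ranged from 11.71 to 11.90 in CIR-2 (median 11.76) and from 11.91 to 12.24 in CIR-3 (median 11.96), just without overlap, a difference of 0.27 (SE 0.0608, adjusted p = 0.0118). Edem1 and Sel1l, which mark misfolded proteins for removal from the ER, both rose by 0.22 (adjusted p = 0.00165 and 0.000876), and Creld2 and the co-chaperone Dnajc3 by 0.18. The main ER chaperone Hspa5 (BiP) rose by 0.11, while Hsp90b1 (0.05), Calr (0.04) and Canx (-0.01) did not pass. The stress factors Ddit3 and Atf4 differed by 0.06 each and did not pass. The count was 3 without the replicate block or without CIR-3 array 5 or 6, 2 without CIR-2 array 6, and 5 without CIR-2 array 3 or 4 or with the 12 CIR-2 and CIR-3 arrays alone.

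Of 22 haematopoietic cytokine receptors 6 rose and 2 fell, against 5.2% and 2.7% of all genes. Within this list, which does not hold Il2ra, the beta chains Csf2rb2 and Csf2rb had the largest passing differences. Csf2rb2, the beta chain used by mouse interleukin-3 alone, ranged from 12.54 to 12.81 in CIR-2 (median 12.73) and from 13.15 to 13.55 in CIR-3 (median 13.18), with no overlap, 1.5-fold higher (adjusted p = 0.000298). Csf2rb, the chain shared by interleukin-3, interleukin-5 and GM-CSF, ranged from 13.02 to 13.24 and from 13.42 to 13.89, also with no overlap, a difference of 0.43 (SE 0.0914, adjusted p = 0.00696). These copies are close in sequence, and probes of one may read the other. The GM-CSF receptor Csf2ra rose by 0.25, the interleukin-18 receptor Il18r1 by 0.32 and the interferon receptor Ifnar1 by 0.17. Ifnar1 lost its call in 14 settings. Il3ra differed by -0.06 and did not pass. Il6st and Il6ra, the receptor genes of interleukin-6, differed by -0.04 and -0.11 and did not pass. Without the block 2 rose and 0 fell. The 2 falls became 0 without CIR-2 array 4, 5 or 6 or CIR-3 array 3, and 1 without CIR-2 array 1, 2 or 3 or CIR-3 array 2 or 6.

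Of 24 JAK, STAT and feedback genes 6 rose and 1 fell, against 5.2% and 2.7% of all genes, with a median of 0.08. Stat4 ranged from 7.01 to 7.29 in CIR-2 (median 7.10) and from 6.15 to 6.43 in CIR-3 (median 6.29), with a CIR-3 mean just below the background mark and no overlap, at least 1.79-fold lower (adjusted p = 1.76e-06). Stat2, the interferon signal partner, ranged from 9.08 to 9.38 and from 9.41 to 9.78, a difference of 0.36 (SE 0.0422, adjusted p = 3.17e-05). Pias3, an inhibitor of STAT3, rose by 0.23, Socs5 by 0.20 and Socs2 by 0.19. The exon-level value of Socs2 was -0.03. The targets of gp130 in the list, Stat3 (0.05), Socs3 (0.03) and Pim1 (-0.04), did not pass. The 6 rises became 1 without the block, 2 without CIR-2 array 6, and 3 without CIR-3 array 3, 4 or 6 or with quantile normalization. Of 19 interferon-stimulated genes 1 rose and 2 fell, against the same 5.2% and 2.7%. The chemokine Cxcl10 ranged from 7.99 to 9.30 in CIR-2 (median 8.40) and from 6.99 to 7.68 in CIR-3 (median 7.10), with no overlap, 2.38-fold lower (adjusted p = 2.11e-10). Ifit2 fell by 0.51 and Irf9, an interferon regulatory factor, rose by 0.20, while the other 16 lay between -0.14 and 0.16.

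Annexins, galectins and S100 proteins bind membranes, sugars or calcium, and 5 of 20 rose and 2 fell, against 5.2% and 2.7% of all genes. Besides Lgals3, Anxa3 ranged from 8.68 to 9.66 in CIR-2 (median 9.14) and from 11.14 to 11.38 in CIR-3 (median 11.25), 4.26-fold higher with no overlap (adjusted p = 4.7e-10), and lay at a median of 7.51 in parental cells. Anxa2 rose by 0.50 (SE 0.0509, adjusted p = 5.46e-06). S100a4 ranged from 8.29 to 8.82 in CIR-2 (median 8.43) and from 7.23 to 7.69 in CIR-3 (median 7.42), 2.02-fold lower with no overlap, and S100a6 fell by 0.45 to a mean just below the background mark. S100a10, the partner of annexin A2, differed by 0.10 and did not pass. 

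Of 26 lipid handling genes 5 rose and 2 fell, against 5.2% and 2.7% of all genes. Atp8b4, a lipid flippase, ranged from 6.16 to 7.17 in CIR-2 (median 6.65) and from 8.47 to 8.95 in CIR-3 (median 8.71), 4.13-fold higher with no overlap (adjusted p = 2.11e-10), below its parental median of 9.41. The cholesterol exporter Abca1 rose by 0.38, the lipid droplet coat gene Plin3 by 0.36 and the fatty acid sensor Ppard by 0.28. Far2, which makes fatty alcohols, ranged from 12.80 to 13.15 in CIR-2 and from 12.36 to 12.61 in CIR-3, a difference of -0.50 (SE 0.0688, adjusted p = 0.000156). In CIR-1 its median was 10.23, apart from all other lines. Without the block 2 rose and 1 fell, and 1 fell without CIR-2 array 1, 3, 4 or 6 or without CIR-3 array 3, 4, 5 or 6.

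Among 17 Hipk, protein kinase D and phospholipase C genes 3 rose and 3 fell, against 5.2% and 2.7% of all genes. This mixed list was written with earlier results of these data known, so its count supports nothing about these families. Hipk2 and Plcb4 are 2 of the falls, given above, and Plcb2 fell by 0.15. Hipk3 and Plcg1 each rose by 0.17, while Hipk1 differed by -0.02 and did not pass. Plcg1 lost its call in 13 settings. Prkd3 ranged from 7.70 to 8.05 in CIR-2 (median 7.88) and from 8.27 to 8.69 in CIR-3 (median 8.44), with no overlap, 1.54-fold higher (adjusted p = 0.000169). Of 21 heparan sulfate and sialic acid enzymes, a list chosen in the same way, 4 rose and 1 fell, against the same 5.2% and 2.7%. Hs3st1 was the fall. The polysialic acid enzyme St8sia4 ranged from 11.16 to 11.86 in CIR-2 (median 11.21) and from 11.69 to 12.36 in CIR-3 (median 11.89), a difference of 0.56 (SE 0.0491, adjusted p = 9.53e-07), higher in all 6 same-numbered pairs. The sialyltransferase St3gal2 rose by 0.27, Extl3 by 0.21 and Glce by 0.16, the last 2 acting on heparan sulfate chains. The 4 rises became 1 without the block and 2 without CIR-2 array 1 or 6 or CIR-3 array 5 or 6, and 7 without CIR-3 array 1.

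Among 27 integrins and adhesion molecules 1 rose and 2 fell, against 5.2% and 2.7% of all genes. The laminin receptor chain Itga6 ranged from 12.01 to 12.15 in CIR-2 (median 12.10) and from 11.56 to 11.67 in CIR-3 (median 11.62), with no overlap, 1.38-fold lower (adjusted p = 7.96e-06). Pecam1 rose by 0.31. Without CIR-3 array 1 or 2, 3 members of the list rose. Of 21 receptor tyrosine kinases 0 rose and 1 fell, against the same 5.2% and 2.7%. The fall was Met, by 0.13, with means below the background mark in both lines. Met did not pass without the block or without CIR-2 array 2, 4 or 5 or CIR-3 array 2, 3, 4 or 5. Of 24 aldehyde and aldo-keto enzymes and NRF2 targets 3 rose and 1 fell, against the same 5.2% and 2.7%. The glutathione transferase Gstm1 ranged from 7.77 to 8.24 in CIR-2 (median 7.92) and from 8.45 to 9.32 in CIR-3 (median 8.74), 1.77-fold higher with no overlap (adjusted p = 0.00131), and Akr1c13 rose by 0.51. Both have close relatives whose transcripts their probes may also read. Gsr rose by 0.13 and Gclm fell by 0.20, 2 genes that keep glutathione supplied. In this list 1 rose and 0 fell without the block, 3 rose and 4 fell with the 12 CIR-2 and CIR-3 arrays alone, 5 rose without CIR-3 array 1, and 2 fell without CIR-2 array 6 or CIR-3 array 3, 4 or 6. Of 17 MHC and antigen presentation genes 2 rose and 3 fell, against 5.2% and 2.7% of all genes. None differed by more than 0.27 in size, the largest being H2-DMa at -0.27. The MHC rises became 0 without the block, without CIR-2 array 6 or without CIR-3 array 5 or 6, and became 1 without any other single array but CIR-3 array 1. The falls became 1 without CIR-2 array 1, 4 or 6 or CIR-3 array 3 or 6.

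Few members of the growth and metabolism lists passed. Of 23 DNA replication and G1/S genes 1 rose, Mcm3, by 0.11, against 5.2% of all genes, and it lost its call in 15 settings, among them CIR-2 array 3, 4, 5 or 6 and CIR-3 array 1, 2, 3, 4 or 6 left out. Of 23 mitosis and G2/M genes and of 22 ribosome biogenesis genes 0 passed in limma, against 7.89% of all genes. The proliferation marker Mki67 differed by 0.04, the mitotic kinase Cdk1 by 0.01 and the nucleolar protein Ncl by -0.01. Of 16 cholesterol synthesis genes 1 rose, Insig1, by 0.22, and of 21 glycolysis and hypoxia genes 2 rose, both against the same 5.2% of all genes. The 2 were Ndrg1, by 0.35 (SE 0.0453, limma adjusted p = 9.4e-05), and Pfkp, by 0.13. Insig1 did not pass without the block or without CIR-2 array 6, and 1 of the glycolysis and hypoxia genes rose without CIR-2 array 1 or 4 or CIR-3 array 5 or 6.

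**Figure D3:**
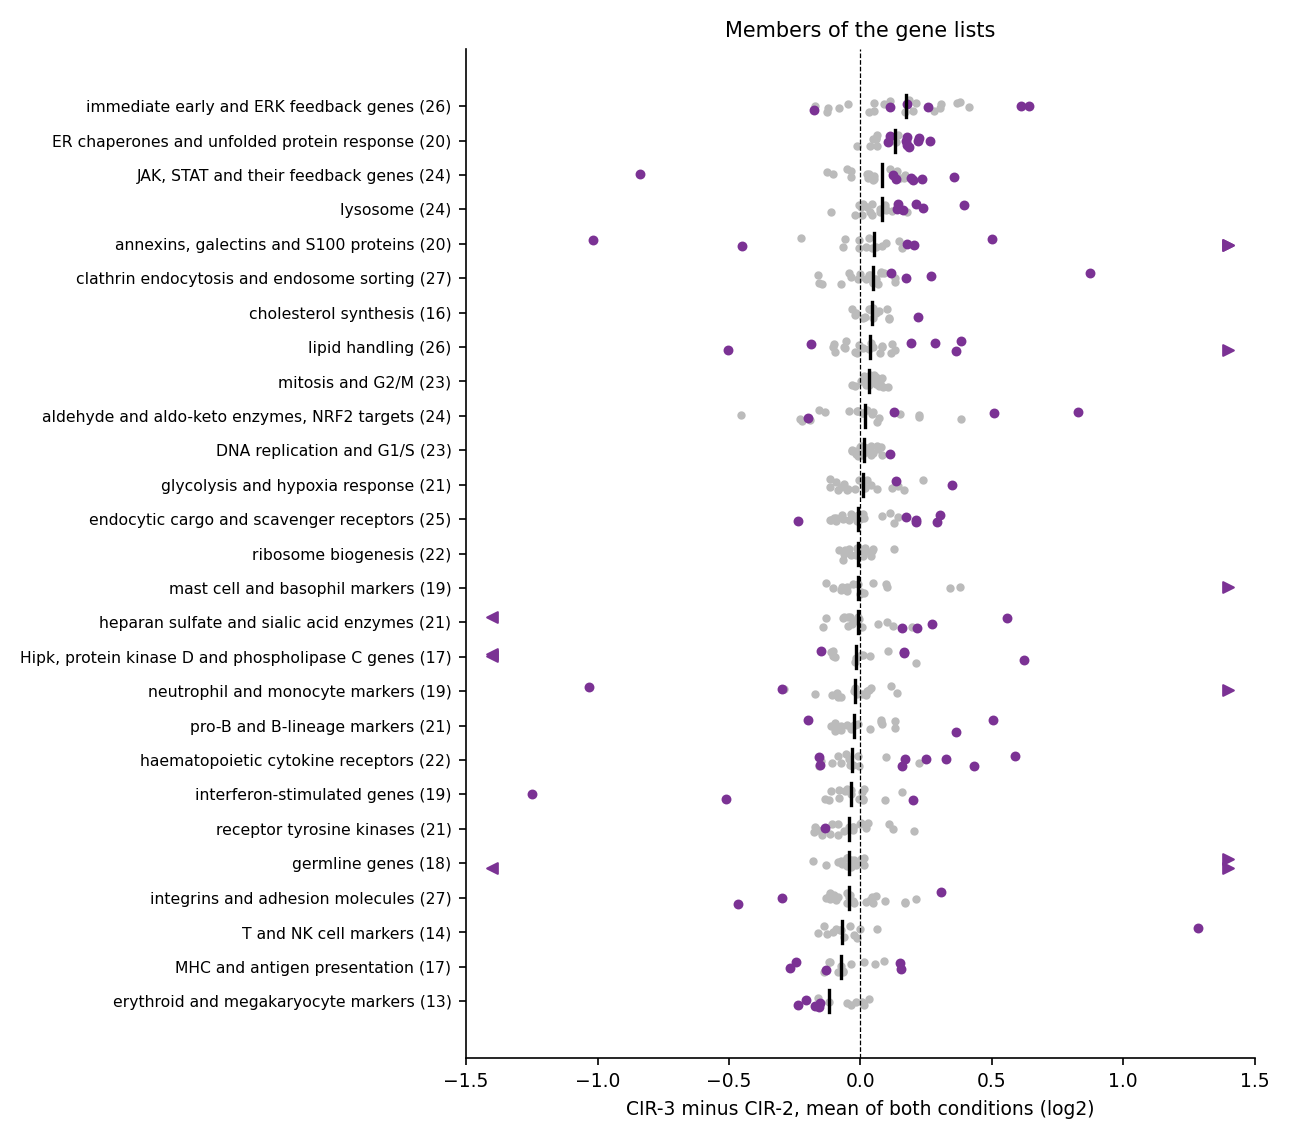
CIR-3 minus CIR-2 (log2, mean of both conditions) for each measured member of the 27 gene lists, with passing members in purple, others in grey, the list median as a black bar and the number measured in brackets. Arrowheads at the edge stand for members beyond 1.4 in size, and list medians lie between -0.12 and 0.17.

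The exon-level values were used to ask whether single probe sets of a gene departed from the rest of it. They carry the same array titles as the gene-level values, and all 6703 probe sets present at both levels hold identical values. The exon level is therefore a second summary and not a second set of arrays. In limma's diffSplice 748 of 18077 genes did so (4.14%). The number was 222 without the replicate block. Probe sets are counted below in the order of their numbers, which need not be the order along the gene, and a departure can come from another transcript or from probes that read another gene. The strongest departures by adjusted p were in Sly, Arntl2, Plcb4, Mtus2 and Tdrd9. Mtus2, a microtubule-associated gene, had 18 probe sets. In CIR-3 the last 5 were higher than in CIR-2 by 2.56 to 4.38, and the other 13 differed by -0.32 to 0.58. The last of these ranged from 5.56 to 6.36 in CIR-2 and from 10.02 to 10.50 in CIR-3, and the 5 averaged 10.06 in CIR-3 against 6.92 in CIR-2, with 6.76 in parental cells and 6.79 in CIR-1. At gene level Mtus2 differed by 0.12 (limma adjusted p = 0.356) and did not pass, so that the exon-level values hold a change which the gene-level value does not show.

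Arntl2, a relative of the clock gene Bmal1, had 7 of 15 probe sets higher in CIR-3, by 1.41 to 4.81, and the other 8 between -0.41 and 0.51. One of the 7 ranged from 4.67 to 6.48 in CIR-2 and from 10.01 to 10.46 in CIR-3. The 7 averaged 6.30 in parental and 6.40 in CIR-2 cells, and 9.51 in CIR-1 and 9.46 in CIR-3. At gene level the difference was 0.74 (SE 0.0561, adjusted p = 1.15e-07). Sly, a Y-linked relative of the Xlr family with many copies, had 2 of 23 probe sets lower in CIR-3, by -3.98 and -3.77. They averaged 9.71 in CIR-2 and 5.83 in CIR-3, with 5.90 in CIR-1 and 4.03 in parental cells. As with Xlr, the probes may read other family members. In Plcb4 all 38 probe sets were lower, 27 of them by 1 or more, reaching -4.66. In Tdrd9 all 35 were higher, 34 of them by 1.03 to 4.97. For Plcb4 and Tdrd9 the probe sets thus departed in size and not in direction, and a departure in size alone does not show a difference between transcripts.

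For the other large differences the exon-level values gave the same direction throughout or nearly so. These genes were chosen by their gene-level size on the same arrays, so this agreement is no independent support. All 7 probe sets of Gm773, all 5 of Lgals3, all 14 of Mpo, all 13 of Ptgs2 and all 16 of Scin were higher in CIR-3. All 5 of 3830403N18Rik and all 18 of Hipk2 were lower. Of the 4 probe sets of Hs3st1, 3 were lower.

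**Figure D4:**
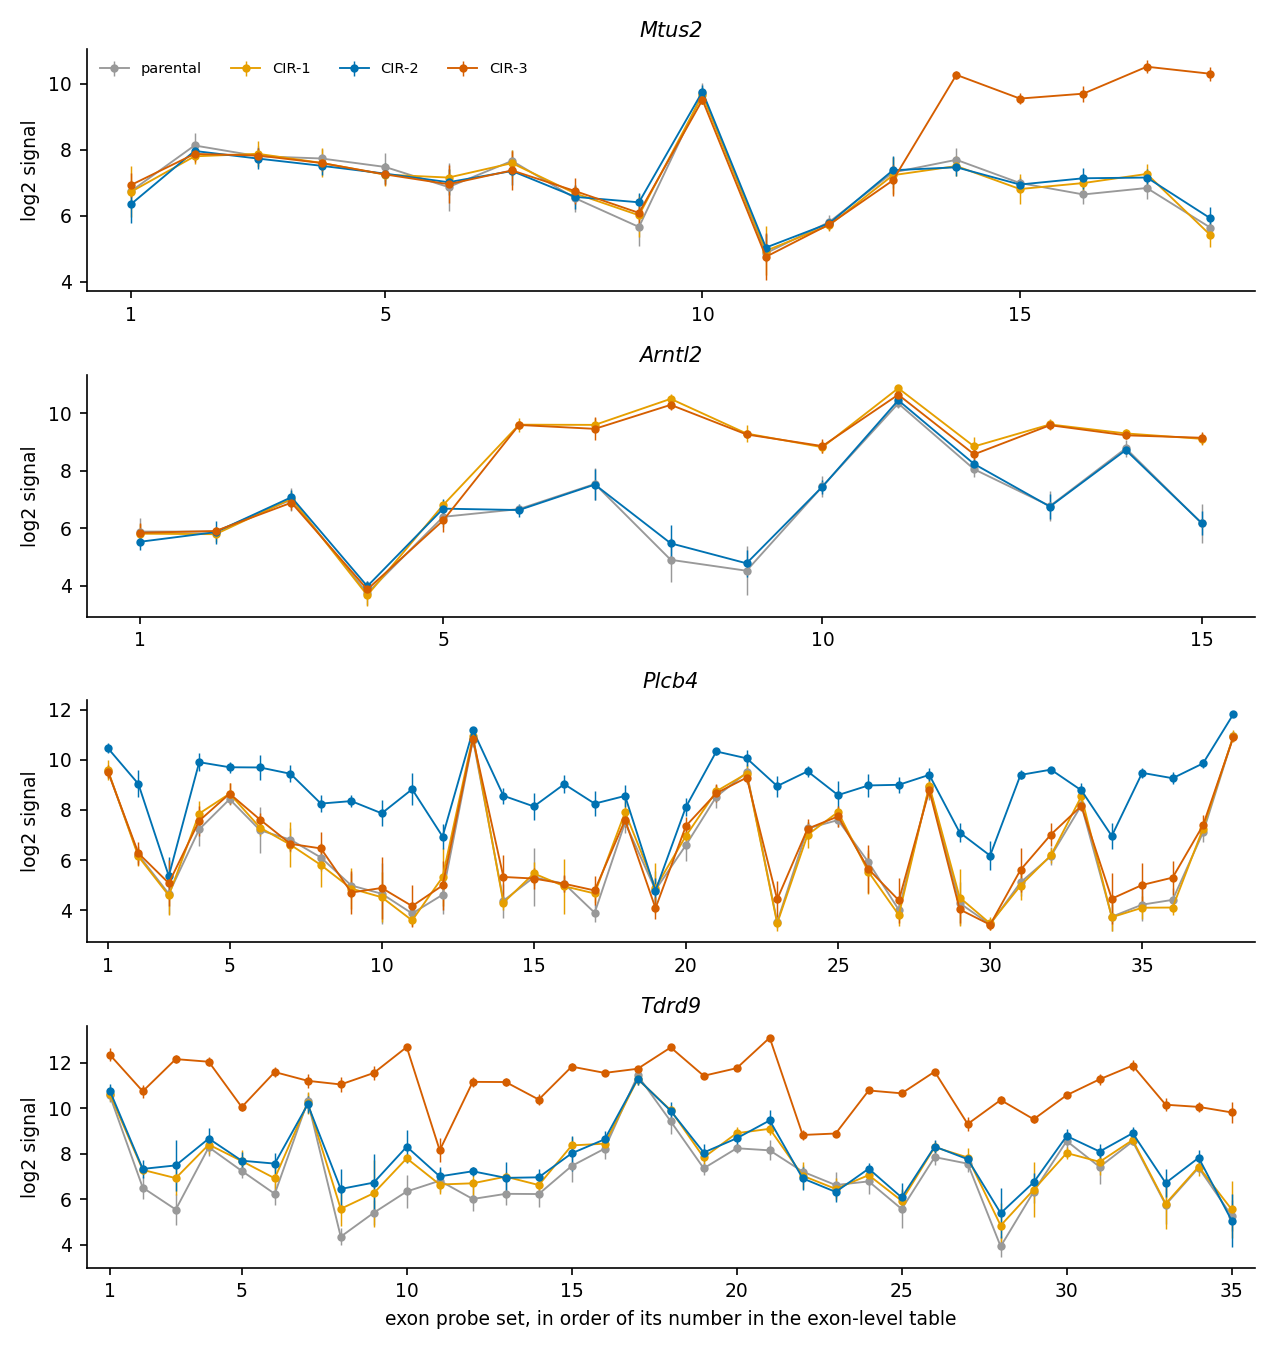
Mean log2 signal of each exon probe set of Mtus2, Arntl2, Plcb4 and Tdrd9 in the order of their numbers, for parental, CIR-1, CIR-2 and CIR-3, with SD bars over 6 arrays. In Mtus2 CIR-3 alone leaves the other lines at the last 5 probe sets, in Arntl2 CIR-1 and CIR-3 lie together above parental and CIR-2, in Plcb4 CIR-2 lies above the other lines, and in Tdrd9 CIR-3 does.

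Passing genes also lay beside each other in places. Along the gene order of the RefSeq annotation, 22 runs of at least 5 adjacent measured genes had differences of one sign with at least 3 passing. They held 196 of 19917 placed genes, and 77 of those passed, against 7.89% of all genes. A run was kept only if at least 3 of its genes passed, so this share is raised by the choice and supports nothing. How many such runs would arise with passing genes placed at random was not estimated. In 11 runs CIR-3 was higher and in 11 lower. This is a description with no test, since neighbours can share transcripts or probes. The run with the most passing genes went from Gm10139 to Zfp729b, with 25 genes, 11 of them lower in CIR-3 and passing, by -0.31 to -0.19, and a median of -0.19 over the 25. Of its genes 16 are named as zinc finger proteins of the Zfp series, close in sequence, so that their probes may cross-read. It also held Uqcrb, a subunit of respiratory complex III (-0.19), Mterf3, a mitochondrial transcription regulator (-0.27), and Ptdss1, which makes phosphatidylserine (-0.26). Ptdss1 was lower in CIR-3 in all 6 same-numbered pairs, with no overlap. Against parental cells the run's median was 0.15 in CIR-2, -0.03 in CIR-3 and -0.03 in CIR-1. Of all 347 genes named Zfp, 19 passed as higher and 11 as lower, against 5.2% and 2.7% of all genes, so the Zfp genes as a whole do not stand out.

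The other runs named were shorter. From 4930486L24Rik to Ctsj, all 6 genes were lower in CIR-3 and 4 of them passed. The 4 were Ctla2a at -1.95, Ctsj at -1.14, Ctla2b at -0.79 and 4930486L24Rik at -0.35, all without overlap. These are relatives of cathepsins or of their propeptides, and close copies again limit which gene a probe reads. From Cstf3 to Eif3m, all 8 genes were higher in CIR-3 and 4 of them passed. Depdc7 led with 1.11 (adjusted p = 1.76e-09), followed by Prrg4 with 0.33, Tcp11l1 with 0.33 and the RNA cleavage factor gene Cstf3 with 0.23.

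**Figure D5:**
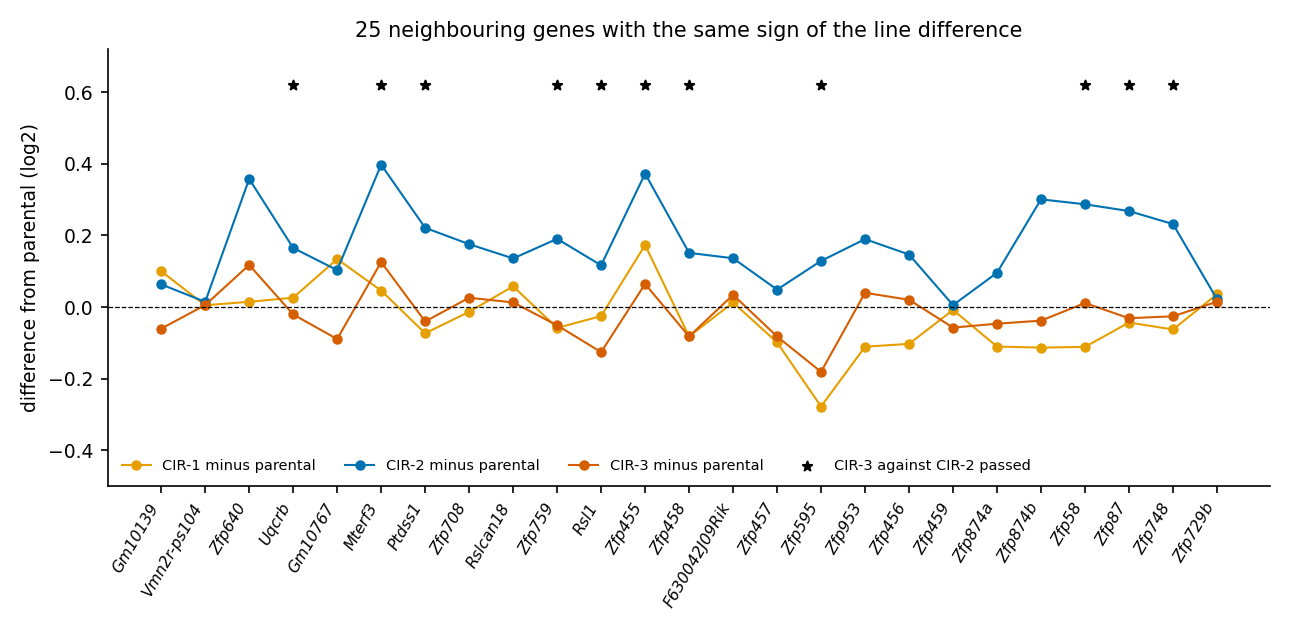
Difference from parental cells (log2, means of 6 arrays) of CIR-1, CIR-2 and CIR-3 for the 25 neighbouring genes from Gm10139 to Zfp729b, in annotation order, with a star over the 11 genes that passed between CIR-3 and CIR-2. CIR-2 lies above parental for most of the run, with a median of 0.15, and CIR-1 and CIR-3 both have a median of -0.03.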

How the data were processed

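The comparison, its gene lists and its tests were chosen with earlier results of these data known. The authors deposited one value per probe set and array, made in Affymetrix Expression Console at gene level and at exon level (its core analyses), per the labels. Algorithm, version, normalization and genome build are not given in the sources used here. The deposited values lie between 2.97 and 14.86 (gene level) and were read as log2 signals, so folds rest on that reading. RNA (150 ng) was amplified with the Ambion WT Expression kit, per the labels' protocols.

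Of 35556 gene-level probe sets, 21789 carried 1 symbol, 1621 several and 12146 none. The entrez number was found for 21698, and 23 symbols were updated. For 1015 genes with several probe sets, the one with the highest mean was used, which left 19920 genes. No filter on dim genes was applied.

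limma 3.58.1 in R 4.3.3 (data.table, version 1.17.8) fitted 24 arrays (parental, CIR-1, CIR-2 and CIR-3, unstimulated or GFP-PFC), with 1 mean per line and condition and the replicate number as a block. Tests were two-sided, adjusted by Benjamini-Hochberg over all genes, with a threshold of 0.05. The numbers were taken to pair the arrays because deviations from the group means correlated between same-numbered CIR-2 and CIR-3 arrays for all 6 numbers (r across genes 0.251 to 0.544) and for every other pair of lines above 0.1. Exon-level values (212097 probe sets with 1 symbol, 20352 genes) entered limma's diffSplice after identical repeats within a gene were dropped, for 18077 genes. Scripts were tested on simulated data.

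The genes named were the 12 that rose most and the 12 that fell most, taken from passing genes whose lines did not overlap, and up to 5 passing members of each of 27 gene lists (every passing member for endocytic receptors and pro-B markers). They also include the 5 smallest p for the change with GFP-PFC, 5 exon genes and 3 gene runs. Alternatives were no block, a block of 3 levels, other sets of arrays, exon-level values, dim genes left out, every probe set on its own, quantile normalization, array weights and each array left out in turn.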

Additional observations from a re-analysis of the deposited data

How the results depend on the processing

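Without the replicate block 396 genes passed in the mean of both conditions, 146 unstimulated, 135 after GFP-PFC and 222 in the exon test. With array weights 3075, 1183 and 619 genes passed. With the 12 CIR-2 and CIR-3 arrays alone 245 passed unstimulated and 203 after GFP-PFC, and 222 unstimulated without the arrays numbered 1 and 2. Without the block and those arrays, an alternative added with the data in view, 152 passed unstimulated and 174 after GFP-PFC. The cause of these shifts was not tested. Leaving out each CIR-2 or CIR-3 array in turn gave 852 to 2233 genes in the mean, 168 to 481 unstimulated and 145 to 355 after GFP-PFC. The change with GFP-PFC had 0 passing genes in limma in every setting. The other counts of these comparisons over all genes, and of the exon test, lay within 1.5 times the reported ones. Of 104 named genes 50 lost the call without the block, 24 without the block and the arrays numbered 1 and 2, 23 with the 12 arrays alone, 17 in the exon-level values and 15 with quantile normalization, while 0 lost it with array weights. Leaving out 1 array lost between 4 (CIR-3 array 1) and 29 (CIR-2 array 6), with 27 for CIR-3 array 6. Socs2 changed sign in the exon-level values (-0.0345). The exon test was not run with single arrays left out, and few arrays per group limit all of these values.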

Other observations

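Further genes with exon departures are given here, chosen after their values were seen. Strc, an inner ear gene with a near-identical pseudogene copy, had 1 of 29 probe sets higher in CIR-3 by 4.76, from 4.23 to 6.70 in CIR-2 to between 9.44 and 10.55 in CIR-3, and its gene-level difference was -0.03. The receptor phosphatase Ptprk had 14 of 33 probe sets lower, by -1.89 to -1.27, and they averaged 7.59 in CIR-3 against 9.17 in CIR-2, with 9.25 in CIR-1 and 6.81 in parental cells. The lipid phosphatase Inpp4b had 19 of 27 lower, by -2.53 to -1.02, with 6.82 in CIR-3 against 8.36 in CIR-2, and 8.26 in CIR-1 and 8.25 in parental cells. At gene level Inpp4b differed by -1.18 (SE 0.0724, limma adjusted p = 6.07e-09). Ccdc80, which encodes a secreted matrix protein, had 5 of 12 lower, with 7.69 and 5.01. Ccdc38 had 7 of 19 higher, with 6.19 in CIR-2 and 8.27 in CIR-3. In Dnm1 11 of 26 probe sets were higher by 1.12 to 2.20, and the other 15 lay between -0.31 and 0.98.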
